A study of Mus musculus with 6 samples.

Results

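The genes described here are 43 mouse germline and meiosis genes, chosen by name and then looked up in the authors' comparison of sorted embryonic stem cells. Of these, 39 had a row among the 17110 rows of the authors' deposited table, and the other 4 (Spo11, Asz1, Figla and Dpep3) had a row neither there nor in the count table and were not analysed here. The study read polyadenylated RNA by paired-end sequencing from the mouse embryonic stem cell line TG2A, which carried a fluorescent protein driven by MERVL, an endogenous retrovirus active in the early mouse embryo and in a small part of cultured stem cells. Cells with reporter signal (DsRed2-positive, 3 samples) and without it (DsRed2-negative, 3 samples) were separated by FACS from cultures in serum and leukemia inhibitory factor. All samples share that line, reporter and medium, so the only difference that the labels give between the groups is the sorting gate, and 1 reporter line limits what the groups stand for. Replicates were sampled on separate dates.

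Germline genes encode the proteins that pair and recombine homologous chromosomes in meiosis, the small-RNA machinery (PIWI-interacting RNAs, piRNAs) that silences transposons in germ cells, and the RNA-binding and transcription factors that set up that programme. In somatic cells and embryonic stem cells, many of them are held down by CpG methylation at their promoters and by a repressor complex of the Polycomb group, PRC1.6, which reaches DNA through MGA with MAX at E-boxes and through E2F6 at E2F-type sites. Embryonic stem cells nevertheless transcribe a number of these genes at a low level.

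The authors' deposited table names neither the groups compared nor which of them is the numerator. Signs are therefore reported as the table has them, and no sorted group is assigned to a positive value. The labels hold only the sorted groups, so those are taken to be what it compares. The 6 count columns match no sample label, so values per library, depth per library and the spread between replicates are not shown here; the standard error (SE) in the table is the measure of error, and values written as 2.92 ± 0.23 (SE) are log2 fold changes. For the members the results turn on, the mean normalized count and the fold change were turned into the level on each side of the comparison, with 3 libraries on each side. In these bulk samples a smaller share of cells with a transcript and less of it per cell cannot be told apart.

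By the authors' deposited table, at a threshold of 0.05 on the adjusted p-value, 23 of the 39 members were positive, 6 were negative and 10 did not pass. Over all rows of the authors' deposited table, 14.6% were positive past that threshold, 15.9% were negative and 30.5% passed in either direction. The members' share was thus 59.0% on the positive side, while their 15.4% on the negative side lay near that of all rows. The median log2 fold change of the 39 members in the authors' deposited table was 1.16, against 0.01 over all rows. Pnma5 and Catip were among the most positive rows of the comparison when the members were named, so they support no count; without them 21 of 37 members were positive past the threshold, and the median was 1.11. The table's own call, which also asks for an absolute log2 fold change over 0.5, gave 22 members up and 5 down, where it gave 9.40% and 12.1% of all rows. The members were named with earlier results of these data known, so these shares describe the members and test nothing.

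**Figure D1:**
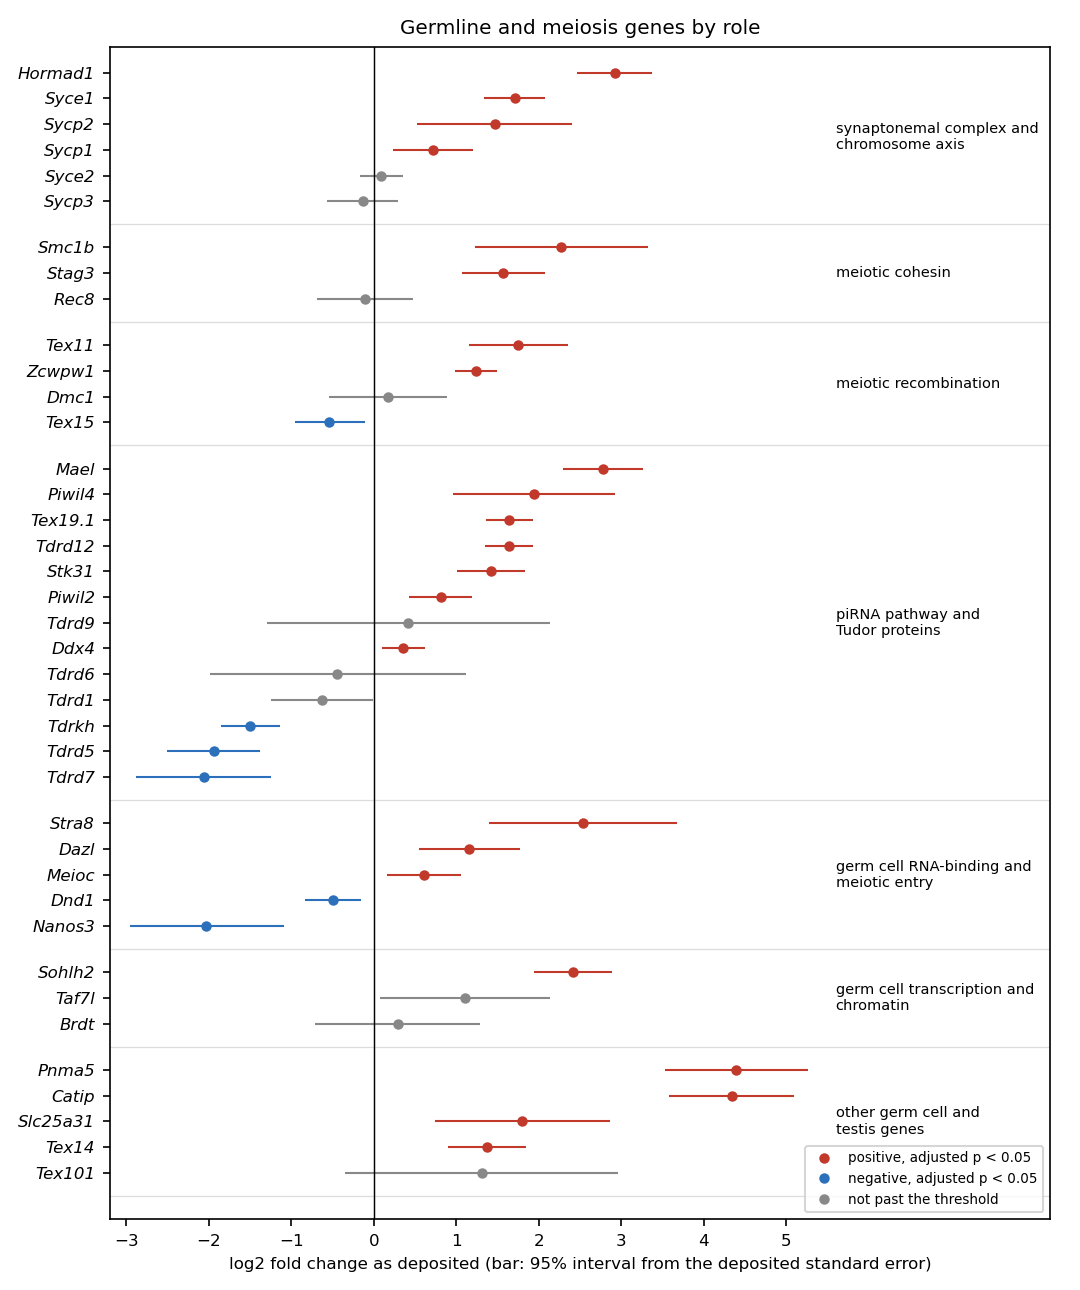
Log2 fold change of each of the 39 members as deposited, grouped by role, with bars for the 95% interval from the deposited standard error; red and blue points are past an adjusted p-value of 0.05. The interval of most members in the synaptonemal complex, cohesin and testis groups lies right of 0, while the piRNA group runs from -2.06 (Tdrd7) to 2.78 (Mael). Pnma5 and Catip of the testis group were named with their values known.

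The members spanned a wide range of abundance. Of the 9 members with a mean normalized count under 50, 3 were positive and 1 was negative past the threshold by the authors' deposited table, where 9.43% and 11.2% of all rows in that range were. Of the 26 members between 50 and 1000, 18 were positive and 5 negative, against 14.7% and 21.7% of all rows in that range of the authors' deposited table. Pnma5 and Catip, which support no count, are among those 18. Of the 4 members with at least 1000, Tdrd12 and Stag3 were positive and Syce2 and Sycp3 did not pass, against 18.3% positive among all such rows. The median standard error in the authors' deposited table was 0.53 for members under 50 and 0.24 for the others. Dividing the mean count by the longest annotated transcript puts Syce2 (1211 counts per kilobase) and Sycp3 (1026) at percentiles 87.9 and 85.8 of all rows by level. At the other end of that scale stood Tdrd6 at 0.958 and Tdrd9 at 1.49 counts per kilobase.

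**Figure D2:**
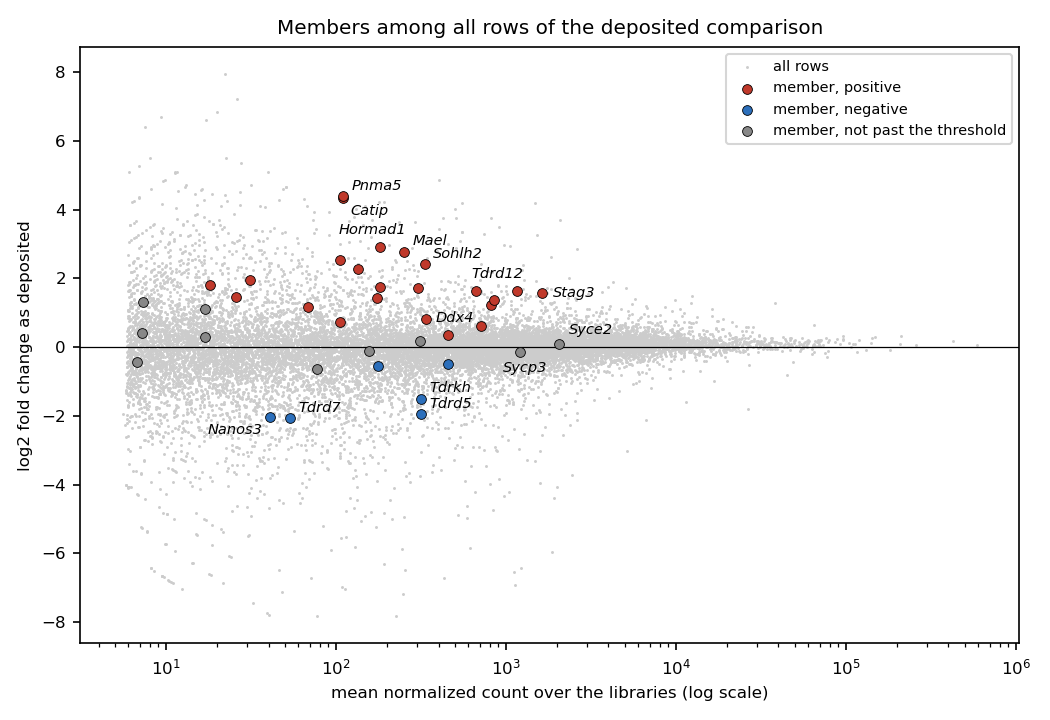
Log2 fold change as deposited against the mean normalized count (log axis) for all 17110 rows in grey, with the members coloured by whether they passed an adjusted p-value of 0.05. Most coloured members lie above 0 between counts of 50 and 1000, and Syce2 and Sycp3 lie near 0 at over 1000.

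The sequences around the start of these genes are shown next because 23 members passed the threshold in 1 direction. RefSeq windows of 300 bases (250 before the start and 50 after it, build GRCm38.p6) matched 34 of the 39 members by symbol; Tex11, Tex15, Piwil2, Tdrd6 and Dnd1 had none. Each window was searched on both strands for CACGTG, the E-box bound by MAX-type factors, which reads the same on either strand, and for GCGGGAA, an E2F-type site, whose other strand reads TTCCCGC. No E-box overlapped an E2F-type site in the members' windows (0 windows). The 4 windows below hold both motifs, in capitals; Hormad1 and Stag3 were among the strongly positive members, Ddx4 was weakly positive and Sycp3 did not pass the threshold. The windows of Catip and Pnma5, the members with the largest fold changes, hold neither and are shown for contrast. They are not exceptions in this: other positive members without either motif include Sohlh2, Stra8, Syce1, Tdrd12 and Tex19.1.
Hormad1 (chr3:95559427-95559726, plus strand): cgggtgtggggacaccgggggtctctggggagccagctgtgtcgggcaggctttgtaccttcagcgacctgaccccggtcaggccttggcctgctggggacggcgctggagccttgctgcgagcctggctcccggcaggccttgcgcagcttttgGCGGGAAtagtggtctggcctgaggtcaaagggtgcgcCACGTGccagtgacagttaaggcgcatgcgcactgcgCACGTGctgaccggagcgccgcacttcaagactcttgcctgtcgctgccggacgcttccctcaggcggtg
Stag3 (chr5:138280259-138280558, plus strand): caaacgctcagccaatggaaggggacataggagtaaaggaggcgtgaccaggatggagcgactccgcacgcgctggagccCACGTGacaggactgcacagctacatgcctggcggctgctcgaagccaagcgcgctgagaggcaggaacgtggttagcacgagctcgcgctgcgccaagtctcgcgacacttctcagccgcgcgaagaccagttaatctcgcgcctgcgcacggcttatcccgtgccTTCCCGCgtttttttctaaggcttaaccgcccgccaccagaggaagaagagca
Ddx4 (chr13:112652261-112652560, minus strand): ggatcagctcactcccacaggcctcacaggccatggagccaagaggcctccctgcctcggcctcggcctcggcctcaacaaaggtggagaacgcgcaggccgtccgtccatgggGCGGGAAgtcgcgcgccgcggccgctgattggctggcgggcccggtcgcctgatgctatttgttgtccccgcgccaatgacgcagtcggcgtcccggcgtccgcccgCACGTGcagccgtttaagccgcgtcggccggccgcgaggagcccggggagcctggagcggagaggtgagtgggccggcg
Sycp3 (chr10:88459337-88459636, plus strand): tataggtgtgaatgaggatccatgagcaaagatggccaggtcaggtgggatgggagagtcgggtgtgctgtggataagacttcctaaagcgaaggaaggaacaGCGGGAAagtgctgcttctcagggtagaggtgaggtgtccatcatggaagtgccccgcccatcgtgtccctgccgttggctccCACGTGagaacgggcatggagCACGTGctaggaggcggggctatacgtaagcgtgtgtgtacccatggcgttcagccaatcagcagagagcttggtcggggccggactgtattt
Catip (chr1:74361885-74362184, plus strand): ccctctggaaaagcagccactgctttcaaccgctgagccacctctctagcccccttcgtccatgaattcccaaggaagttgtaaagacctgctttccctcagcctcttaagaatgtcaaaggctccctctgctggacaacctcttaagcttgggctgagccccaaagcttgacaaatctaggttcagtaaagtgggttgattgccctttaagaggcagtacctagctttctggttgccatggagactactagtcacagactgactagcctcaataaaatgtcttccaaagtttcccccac
Pnma5 (chrX:73037054-73037353, minus strand): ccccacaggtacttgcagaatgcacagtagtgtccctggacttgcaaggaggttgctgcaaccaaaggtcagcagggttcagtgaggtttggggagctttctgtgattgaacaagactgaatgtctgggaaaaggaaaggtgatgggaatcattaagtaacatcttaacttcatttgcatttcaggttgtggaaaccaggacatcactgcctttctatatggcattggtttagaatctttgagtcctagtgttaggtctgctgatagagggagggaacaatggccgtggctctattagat

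An E-box was found in a window of 13 of the 34 members (38.2%), against 11.5% of the 11495 genes with a row and a window and 8.09% of all 27025 genes with a window. The E2F-type site was found for 10 members (29.4%), against 9.67% of genes with a row and 5.29% of all genes with a window. Both motifs in 1 window occurred for 6 members, Ddx4, Hormad1, Slc25a31, Stag3, Syce2 and Sycp3 (17.6%), against 107 of the genes with a row (0.931%). Of the 21 positive members past the threshold with a window, 7 had an E-box and 7 the E2F-type site; of the 9 that did not pass, 6 and 2; of the 4 negative ones, 0 and 1. A match is a description of these letters and not a site of binding, and the shares were not tested.

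The members also varied widely in CpG content. Taking the window with the most CpG dinucleotides for each gene, the members ranged from 1 (Pnma5) to 48 (Tdrd5), with a median of 20.5, near the 21 of all genes with a row. Catip had 2 CpG dinucleotides, and the negative member Nanos3 had 3. Hormad1 and Mael had 24 each, Stag3 had 30 and Smc1b had 29. Other positive members lay below the median, among them Sycp2 and Stra8 with 10 each, Piwil4 and Tdrd12 with 11 each and Syce1 with 14.

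**Figure D3:**
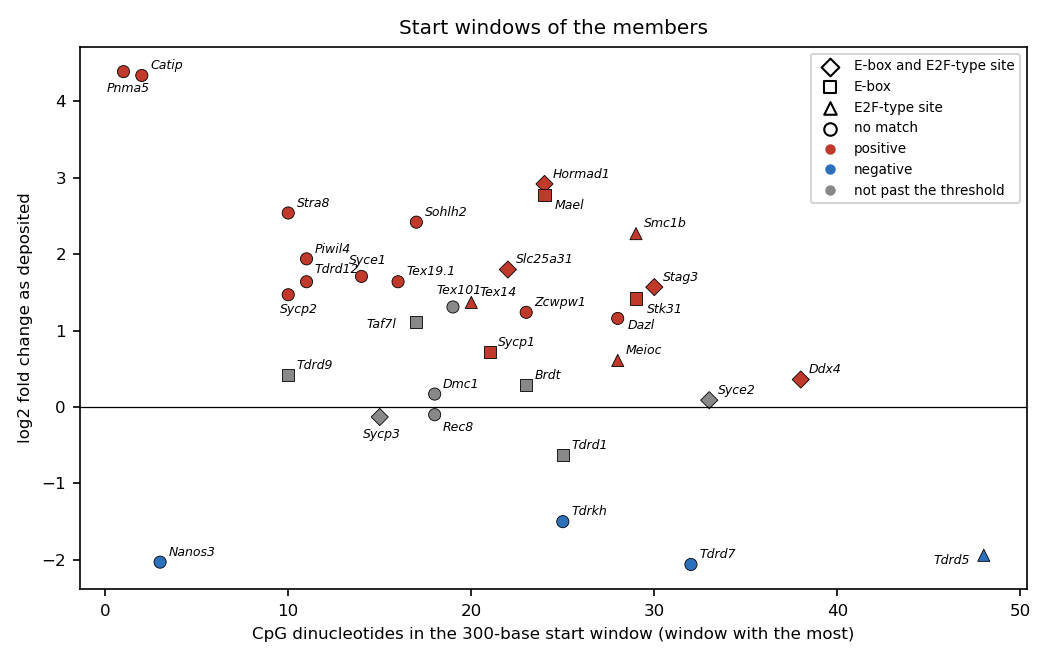
Log2 fold change as deposited against the number of CpG dinucleotides in the 300-base start window for the 34 members with a window; the marker shape gives the motif matches and the colour whether the member passed an adjusted p-value of 0.05. Pnma5 and Catip stand at 1 and 2 CpG dinucleotides with the highest fold changes, and Tdrd5 stands at 48 on the negative side.

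The synaptonemal complex is the protein lattice that holds paired homologues together, built on a chromosome axis. All 6 of its listed members had a row, of which 4 were positive past the threshold and 0 negative. Hormad1 (ENSMUSG00000028109), an axis protein that promotes double-strand breaks and homologue alignment, had a mean normalized count of 181 and stood on the log2 scale at 2.92 ± 0.23 (SE; adjusted p-value 1.43e-33) by the authors' deposited table. Its level computed from these values was 320 on the numerator side of the comparison, whose sorted group is not known, and 42.4 on the other. The ratio was 7.55 with a 95% interval from 5.5 to 10.4. Hormad1 was the 111th row by size of the Wald statistic, the highest place of any member. Syce1, a central element protein, stood at 1.71 ± 0.19 (SE; adjusted p-value 4.03e-18) by the authors' deposited table, which corresponds to 463 counts against 141.

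The other lattice proteins had smaller values. Sycp2, of the axial element, had 1.47 ± 0.48 (SE; adjusted p-value 0.00969) by the authors' deposited table on a low mean count of 25.7. Sycp1, the transverse filament, had 0.72 ± 0.25 (SE; adjusted p-value 0.0147) in the authors' deposited table, and this call was lost at a threshold of 0.01. Neither of the abundant members passed: Syce2, another central element protein, stood at 0.09 (95% interval -0.17 to 0.35) and Sycp3, the partner of SYCP2 in the axial element, at -0.13 (-0.57 to 0.30) in the authors' deposited table. The sign of Syce2 turned to -0.005 after centring on ribosomal protein genes. Exons of Sycp3 overlap 660 exon bases of Chpt1 on the opposite strand in GENCODE M21, so their reads may not be separable.

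Meiotic cohesin ties sister chromatids along the axis. Its subunit Smc1b, the meiotic form of the SMC1 arm, was positive at 2.27 ± 0.53 (SE; adjusted p-value 1.48e-04) by the authors' deposited table, or 224 counts against 46.3. Stag3, the meiotic form of the STAG subunit, had 1.57 ± 0.26 (SE; adjusted p-value 1.32e-08) by the authors' deposited table, or 2443 counts against 821. Rec8, the meiotic kleisin that closes the ring, stood at -0.10 ± 0.30 (SE; adjusted p-value 0.841) by the authors' deposited table. Its 95% interval, -0.69 to 0.48, lies below those of Smc1b (1.23 to 3.32) and Stag3 (1.07 to 2.08); the differences between the genes were not tested.

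Recombination genes were mixed. Zcwpw1, a reader of the histone marks that PRDM9 writes at recombination hotspots, had 1.24 ± 0.13 (SE; adjusted p-value 6.86e-19) by the authors' deposited table, or 1147 counts against 485. Part of Zcwpw1 shares 468 exon bases with Pilra on the opposite strand, and Pilra had no row in the authors' deposited table. Tex11, an X-linked factor needed for crossovers, had 1.75 ± 0.31 (SE; adjusted p-value 1.94e-07) in the authors' deposited table. The recombinase Dmc1 stood at 0.17 with a 95% interval of -0.54 to 0.89 and did not pass (adjusted p-value 0.775) in the authors' deposited table. Tex15, which acts in recombination and in piRNA-directed silencing, was negative at -0.54 ± 0.22 (SE; adjusted p-value 0.0453) by the authors' deposited table, and this call was lost at a threshold of 0.01.

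The piRNA group showed both directions. Of its 13 members with a row, 7 were positive and 3 negative past the threshold by the authors' deposited table. On the positive side stood Mael, a nuage protein needed for transposon silencing, at 2.78 ± 0.24 (SE; adjusted p-value 7.44e-28) in the authors' deposited table, or 436 counts against 63.4. Tex19.1, a repressor of retrotransposons in germ cells and stem cells, had 1.64 ± 0.15 (SE; adjusted p-value 1.26e-27), or 1014 counts against 324, from the authors' deposited table. Tdrd12, a Tudor helicase of the piRNA amplification step, also had 1.64 ± 0.15 (SE; adjusted p-value 2.65e-26), or 1756 counts against 563, from the authors' deposited table. Stk31, a Tudor protein with a kinase-like domain, stood at 1.42 ± 0.21 (SE; adjusted p-value 3.06e-10) in the authors' deposited table.

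The PIWI proteins themselves, which bind piRNAs, were positive. Piwil4 (MIWI2), which directs DNA methylation of transposons, had 1.94 ± 0.50 (SE; adjusted p-value 7.26e-04) by the authors' deposited table on a mean count of 31.2. Piwil2 (MILI) had 0.81 ± 0.20 (SE; adjusted p-value 2.35e-04) by the authors' deposited table, or 429 counts against 244. Ddx4, the germ cell helicase VASA, was small at 0.36 ± 0.13 (SE; adjusted p-value 0.0234) by the authors' deposited table. Its call was lost at a threshold of 0.01 and after centring on ribosomal protein genes (0.27).

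On the negative side of the same pathway were 3 Tudor genes. Tdrkh, which anchors PIWI proteins at mitochondria for the trimming of piRNAs, had -1.50 ± 0.18 (SE; adjusted p-value 4.94e-15) by the authors' deposited table. That corresponds to 165 counts on the numerator side of the comparison and 465 on the other. Tdrd5, needed for piRNA production from pachytene precursors, had -1.94 ± 0.29 (SE; adjusted p-value 3.21e-10) by the authors' deposited table, or 130 counts and 498. Tdrd7, a component of the chromatoid body that is also required in the lens, had -2.06 ± 0.42 (SE; adjusted p-value 8.36e-06) by the authors' deposited table, or 20.6 counts and 85.9. Tdrkh shares 2255 exon bases with Oaz3 on the opposite strand and Tdrd5 shares 176 with an antisense gene, so without a stated strand setting the reads of these pairs cannot be told apart. Neither Oaz3 nor that antisense gene had a row in the authors' deposited table. Without the 6 members that have such an overlap (Dnd1, Piwil4, Sycp3, Tdrd5, Tdrkh and Zcwpw1), 3 members stayed negative and 21 positive past the threshold.

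The remaining Tudor genes did not pass. Tdrd1, the nuage scaffold that binds MILI, stood at -0.63 ± 0.32 (SE; adjusted p-value 0.12) in the authors' deposited table. Tdrd6 and Tdrd9 had -0.44 and 0.42 with standard errors of 0.79 and 0.88 in the authors' deposited table, on mean counts of 6.76 and 7.17, so that changes of either sign were not resolved.

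RNA-binding proteins and meiotic entry factors also split. Stra8, the retinoic acid target that starts meiosis, had 2.54 ± 0.58 (SE; adjusted p-value 9.32e-05) by the authors' deposited table, or 182 counts against 31.2. Dazl, a translational regulator that licenses germ cells for meiosis, had 1.16 ± 0.31 (SE; adjusted p-value 0.00109), or 94.2 counts against 42, from the authors' deposited table. Meioc, the partner of YTHDC2 in meiotic prophase, had 0.61 ± 0.23 (SE; adjusted p-value 0.0308) by the authors' deposited table, and that call was lost at 0.01 and after ribosomal centring (0.51). Nanos3, which protects primordial germ cells, was negative at -2.03 ± 0.48 (SE; adjusted p-value 1.74e-04) by the authors' deposited table, or 16 counts against 65.3. Dnd1, an RNA-binding protein of the same stage, was negative at -0.50 ± 0.17 (SE; adjusted p-value 0.0146) by the authors' deposited table, just inside the table's fold-change limit and so without its call. Dnd1 also did not pass a threshold of 0.01, and it shares 140 exon bases with Wdr55 on the opposite strand. Stra8, Dazl and Meioc, which act at or near meiotic entry, were thus positive, and Nanos3 and Dnd1, which act in primordial germ cells, were negative. With so few genes no split by stage can be read from this, and none was tested. Genes of germ cell specification counted below went both ways, for example Prdm14 at 0.77 ± 0.24 (SE) and Dppa3 at -0.76 ± 0.19 (SE) in the authors' deposited table.

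Among germ cell transcription factors, Sohlh2, a helix-loop-helix factor of early spermatogenesis and oogenesis, had 2.42 ± 0.24 (SE; adjusted p-value 9.45e-22) by the authors' deposited table, or 557 counts against 104. Taf7l, the germ cell paralogue of TAF7, stood at 1.11 ± 0.53 (SE; adjusted p-value 0.102) by the authors' deposited table, which is not past the threshold. Brdt, the testis bromodomain protein, stood at 0.29 ± 0.51 (SE; adjusted p-value 0.729) in the authors' deposited table. The mean counts of Taf7l and Brdt were both 16.9.

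Of the other testis genes, 4 of 5 were positive past the threshold and 0 were negative, where 14.6% and 15.9% of all rows were. Pnma5 and Catip are among those 4 and support no count. That leaves Tex14 and Slc25a31 positive and Tex101 not passing. Pnma5, an X-linked gene of the paraneoplastic antigen family, was at 210 counts against 9.96 and Catip, which takes part in cilium assembly, at 208 against 10.3, by the levels computed from the authors' deposited table. As a description, since their fold changes were known when they were named, Pnma5 had 4.39 ± 0.44 (SE; adjusted p-value 1.01e-21) and Catip 4.34 ± 0.38 (SE; adjusted p-value 1.26e-27) by the authors' deposited table. Tex14, needed for the bridges between germ cells, had 1.37 ± 0.24 (SE; adjusted p-value 2.36e-07) by the authors' deposited table. Slc25a31, the testis ADP/ATP carrier, had 1.80 ± 0.54 (SE; adjusted p-value 0.00423) by the authors' deposited table on a mean count of 18.2. Tex101, a sperm membrane glycoprotein, stood at 1.31 ± 0.84 (SE) on a mean count of 7.26 by the authors' deposited table, without passing (adjusted p-value 0.254).

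Whether a member moved with its neighbours was read from the 2 nearest rows on each side along the chromosome in GENCODE M21. Of the 116 flanking rows of the 29 called members, 19.8% passed the threshold in the member's own direction and 14.7% in the opposite one. Over all rows of the authors' deposited table, 14.6% were positive and 15.9% negative past that threshold. Pooled over both directions, the shares of the flanking rows thus lay near those of any row, and the difference was not tested. This did not hold for the 6 negative members taken alone. Tex15 had 3 flanking rows passing in its own direction, Tdrkh 2 and Nanos3 2, and each of the 6 had 0 in the opposite one. All flanking rows that passed in the opposite direction lay beside positive members. Pnma5 and Catip, named with their values known, had 2 flanking rows each in their own direction. For 15 of the 29 members, none of the flanking rows passed in the same direction (0 of up to 4), and for the other 14 at least 1 did. Smc1b stood at 2.27 between rows of at most 0.38, none of which passed, by the authors' deposited table. Hormad1 stood at 2.92, and 2 of its flanking rows passed in the same direction with smaller values, Arnt at 0.35 (adjusted p-value 0.0269) and Golph3l at 0.31 (adjusted p-value 0.0107) in the authors' deposited table. Dazl was positive (1.16) next to Rftn1 at -2.85 and Plcl2 at -2.19 in the authors' deposited table.

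Pnma5, Catip, Mael and Tex15 were among the 14 members beside rows that passed in their direction. Next to Pnma5 lay Xlr3a and Xlr3b, a pair of near-identical X-linked genes, at 4.66 and 3.37 with standard errors of 0.61 and 0.51 in the authors' deposited table. Next to Catip lay Slc11a1, a metal ion transporter of phagocytes, at 4.11 ± 0.35 (SE; adjusted p-value 1.15e-29) in the authors' deposited table. Mael lay beside Gpa33 at 1.73 and Styxl2 at 1.32, and Tex15 lay in a stretch in which all 4 flanking rows were between -0.93 and -0.40 in the authors' deposited table. Nanos3 (-2.03) lay beside Gm37352 at -2.71 and Gm26532 at -1.93, on low mean counts of 7.49 and 8.15. Tdrkh (-1.50) lay beside S100a10 at -1.64, Tdrd12 (1.64) beside Gm18558 at 1.71, and Syce1 (1.71) beside Urah at 1.14. These rows also passed in the member's direction.

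**Figure D4:**
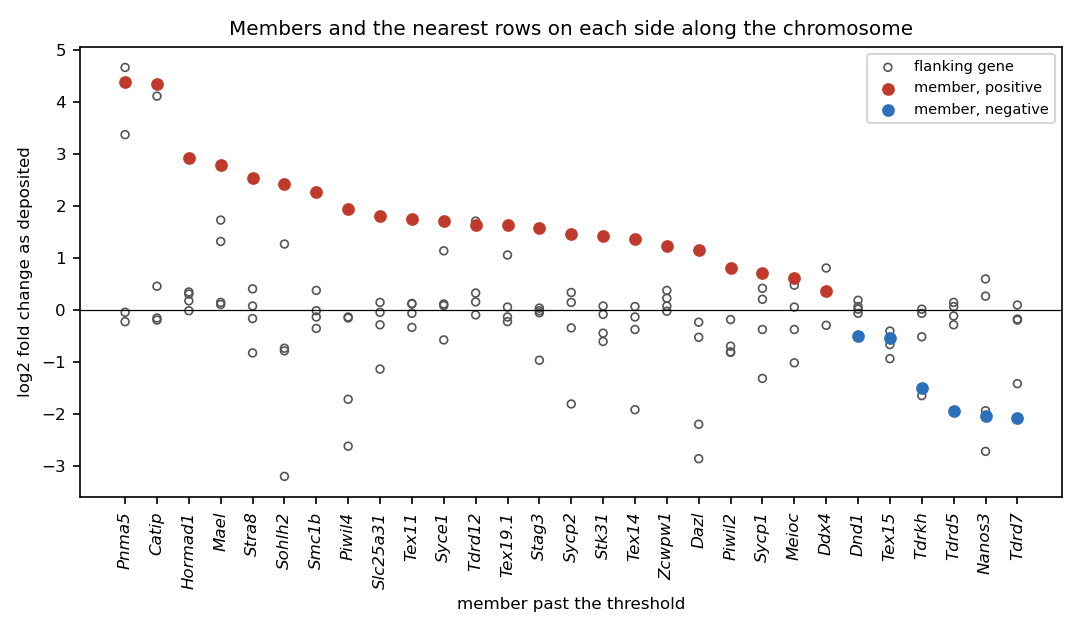
Log2 fold change as deposited of each of the 29 members past the threshold (filled) and of the 2 nearest rows on either side of it along the chromosome (open). Hormad1 and Smc1b stand above all of their flanking rows; Pnma5 and Catip have flanking rows above 3.

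Other genes of the same pathways, taken from lists of general knowledge and without the members, were counted in the same way. Of 47 other meiosis genes with a row, 21 were positive and 1 was negative past the threshold by the authors' deposited table, and the median was 0.45. They include Hsf2bp, a BRCA2-binding recombination factor, at 1.57 ± 0.14 (SE), and the mismatch repair gene Mlh3 at 0.84 ± 0.09 (SE) in the authors' deposited table. The negative one was Prdm9, the histone methyltransferase that marks hotspots, at -0.96 ± 0.32 (SE; adjusted p-value 0.0106) in the authors' deposited table. Of 26 genes with a row on a broad list of other piRNA genes, 12 were positive and 2 negative past the threshold by the authors' deposited table. Not all of this list is specific to the pathway, for example Fkbp5, Mov10 and Tdrd3. Dnmt3l is on this list and is counted again among the DNA methylation genes below. Morc1, which silences transposons in the male germline, was the row of the authors' deposited table with the largest Wald statistic, at 3.70 ± 0.10 (SE). Gtsf1l stood at 1.77 in the authors' deposited table, and the negative ones were Ddx25 at -0.70 and Tdrd3 at -0.55.

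Genes of oocytes and spermatids were counted next. Of 10 oocyte genes with a row, 5 did not pass, 0 were negative and 5 were positive past the threshold by the authors' deposited table, among them Khdc3 and Ooep, of the subcortical maternal complex, at 4.21 and 1.68. Of 17 spermatid genes, 9 did not pass, 0 were negative and 8 were positive in the authors' deposited table, among them the testis tubulin Tuba3a at 4.01, which has a near-identical copy, and the axonemal dynein Dnah8 at 1.61. The list of germ cell specification and gonocyte genes was more even, with 9 of 28 positive and 4 negative past the threshold by the authors' deposited table; 6 of its genes are also pluripotency markers. Its leading genes were Rhox5 at 2.95 and Dppa2 at 1.11, against Lhx1 at -6.27 and Dppa3 at -0.76 in the authors' deposited table. Lhx1 had a mean count of 14.3 and a standard error of 1.42, so the size of its value is poorly determined.

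Genes of the machinery that is known to silence germline promoters were counted last, together with genes of DNA demethylation. Of the 16 PRC1.6 subunits, 8 were positive and 2 negative past the threshold by the authors' deposited table, and the median was 0.18. The table's own call, with its fold-change limit, gave 2 up and 2 down for the same list. Of the lists counted next, the DNA methylation and demethylation genes had 3 up and 1 down by that call. The H3K9 genes had 3 up and 2 down. Mga, the scaffold of the complex, was at 0.53 ± 0.07 (SE) and Wdr5 at 0.51, while E2f6 was at -0.85 ± 0.16 (SE) and Yaf2 at -1.73 ± 0.14 (SE) in the authors' deposited table. Of 9 DNA methylation and demethylation genes, 5 were positive and 3 negative in the authors' deposited table. Dnmt3l, the cofactor of the de novo methyltransferases, stood at 1.73 in the authors' deposited table. Of the genes that act in demethylation, Tet1 stood at 0.83, Tet2 at 1.01, Tet3 at -0.57 and Tdg at -0.28. The counts of this list therefore give no direction for silencing. Of 13 genes of H3K9 methylation and HUSH silencing, 5 were positive and 2 negative in the authors' deposited table, led by Tasor at 1.17 and Atf7ip at 0.72 against Suv39h1 at -0.90 and Pphln1 at -1.29.

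**Figure D5:**
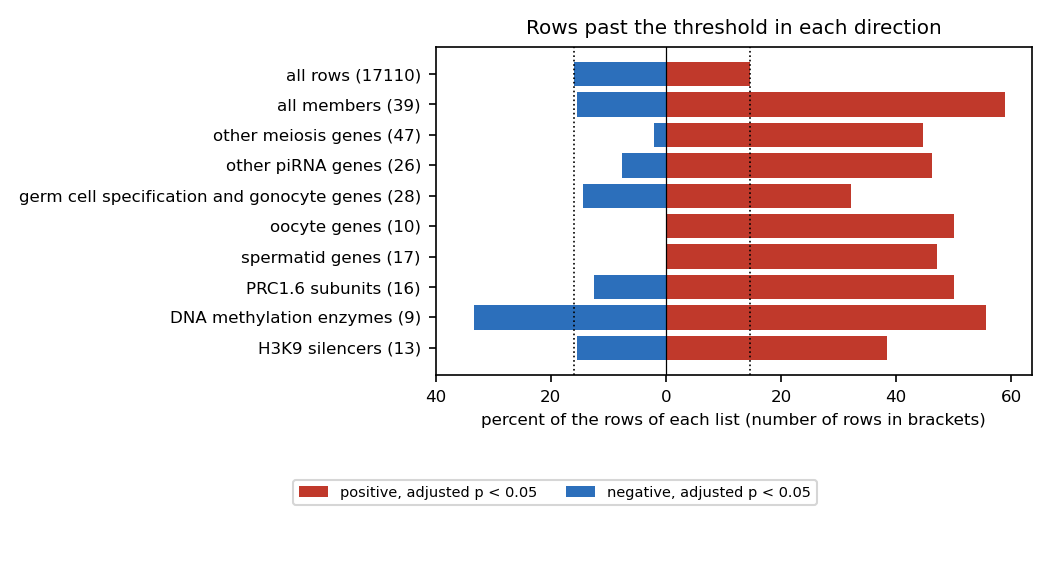
Percent of the rows of each list that passed an adjusted p-value of 0.05 in the positive (right) and negative (left) direction, with the number of rows in brackets and dotted lines at the shares of all rows, 14.6% and 15.9%. The members and the meiosis, piRNA, oocyte and spermatid lists extend past the right dotted line and at most to the left one. The same holds for the germ cell specification, PRC1.6 and H3K9 lists. The DNA methylation and demethylation list extends past both lines. A positive share above that of all rows was thus not limited to the germline lists.

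Markers of the sampled cell type and of others were read beside these genes. All 15 pluripotent stem cell markers had a row, with a median mean count of 9704. By the authors' deposited table, 10 were positive and 0 negative past the threshold, and their median was 0.62. Fibroblast and feeder markers had a row for 10 of 15, with a median fold change (log2) of -1.13 by the authors' deposited table; 5 were negative past the threshold, Twist1 at -2.54, Fbn1 at -1.43 and Col5a1 at -1.38 on mean counts of 51.9, 140 and 309, and Col1a1 at -1.67 and Col1a2 at -4.85 on lower mean counts of 20.9 and 10.1. Fn1 (1 marker) was positive at 0.58 in the authors' deposited table. Gonadal somatic markers had a row for 7 of 14 with a median mean count of 20.6, and 1 was positive and 1 negative in the authors' deposited table. The part of these markers in the members' fold changes was not tested, and their levels in each library are not shown here.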

How the data were processed

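Polyadenylated RNA of 6 samples (3 DsRed2-positive, 3 DsRed2-negative) was sequenced. FastQC 0.12.1, Trimmomatic 0.39, STAR 2.7.11b, RSEM 1.3.3, DESeq2 1.45.3 and the build GRCm39 are named per the submitters' processing notes, without roles. Per the file headers, the authors' deposited DESeq2 table gives the mean normalized count (a signal over all libraries), the log2 fold change with its standard error, the Wald statistic (a score), and the p-value with its adjusted p-value. The deposited statistic differed from fold change over standard error by at most 5.77e-07, and the deposited call equalled an adjusted p-value under 0.05 with an absolute log2 fold change over 0.5, with 0 exceptions. The 6 count columns matched no sample label and were not used, only their gene identifiers, so edgeR was not run, and depth per library and the precision it gives are unknown. Model formula, strand setting and annotation are not given in the sources used here.

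Intervals are 95%, from the standard error. Levels on each side were computed from the mean and the fold change. All 39 members and 16795 rows had a transcript length in GENCODE M21. The orientation of the promoter windows was checked against transcripts: the last 30 bases of 38 of 44 windows lay within one. The planned protein comparison was not run, as no protein sequences were used here. The recomputation of adjusted p-values from fold changes and standard errors after centring was tested on simulated data. Every member with a row is named, and of each wider list the 2 genes with the smallest adjusted p-value in each direction; flanking and overlapping genes and the named fibroblast markers were chosen after their values were seen. Members and lists were chosen with earlier results of these data known. Python 3.11.15, pandas 2.3.3, scipy 1.17.1 and matplotlib 3.10.9 were used.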

Additional observations from a re-analysis of the deposited data

How the results depend on the processing

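No paired analysis was possible because neither file ties a value to a replicate: the columns of counts bear run and barcode numbers, and the comparison is given once per gene. For the same reason, leaving out each replicate, other normalizations and count filters were not run, and whether 1 library decides a value is not answered. The 23 positive and 6 negative members stayed within 1.5 times under a threshold of 0.01, both fold-change limits, a minimum mean count of 50, a recomputed adjustment and both centrings; the ribosomal centring, by 0.093, left 21 and 6. Without members whose exons overlap another gene, chosen after seeing the data, the negative count was 3, since 3 of the members left out are negative. Over all rows, the positive count dropped from 2492 to 1609 with a fold-change limit of 0.5, and to 957 with a limit of 1, where the negative count dropped from 2719 to 1315; the limits themselves produce this. Centring on the ribosomal genes moved the split of all rows to 1864 positive and 3508 negative. Syce2 turned to -0.005 under that centring, without a call on either side. With the 250 bases before the start alone, the share of windows of genes with a row fell to 8.15% for the E-box and 6.65% for the E2F-type site, as the search was shorter. Among members with a window, the E2F-type site fell from 10 genes (29.4%) to 8 (23.5%), and the E-box stayed at 13 (38.2%). The matches lost were those of Stag3 and Slc25a31, so these members held both motifs only in the full window. Depth limits the 9 members under a mean count of 50 most.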

Other observations

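Among the 100 rows with the most positive Wald statistics in the authors' deposited table, 5 were members (Hormad1, Mael, Tex19.1, Catip and Tdrd12), and 10 were members or genes of the wider meiosis, piRNA, oocyte and spermatid lists. Among the 100 rows with the most negative statistics, 0 were members and 0 were genes of those lists. The members make up 39 of all 17110 rows, and the meiosis, piRNA, oocyte and spermatid lists hold 47, 26, 10 and 17. Catip was named with its value known, and members and lists were chosen with earlier results of these data known. These counts at either end are therefore a description and test nothing. Several low-count genes outside the members had large positive values in the authors' deposited table: the piRNA factor Gtsf1 at 3.08 ± 0.52 (SE), the co-chaperone Fkbp6 at 5.09 ± 0.66 (SE), and Majin and Terb2, which tether telomeres to the nuclear envelope in meiosis, at 3.40 and 2.48 with standard errors of 0.55 and 0.51. Their mean counts lay between 26 and 39.5, and all 4 were picked after their values were seen.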
